A study of Danio rerio with 6 samples.

Results

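The genes described here encode parts of the mitochondrion of the zebrafish embryo: proteins of the mitochondrial ribosome, subunits of complexes I to V of respiration, the import machinery, and the carriers of the slc25a family that move metabolites across the inner membrane. A gene was a member when the symbol that the study's supplementary gene tables gave to its Ensembl identifier, in the rows read here, began with mrpl, mrps, nduf, cox, uqcr, atp5, timm, tomm, sdh or slc25a, or was aurkaip1. Of the 32054 genes in the deposited count table, 57 met this rule. They comprised 20 carriers, 10 genes of the large and 3 of the small mitochondrial ribosomal subunit, 5 genes of complex I, 1 of complex II, 3 of complex III, 1 of complex IV, 9 of complex V and 4 of outer membrane import. The remaining member, mrps36, carries a ribosomal name but encodes a component of the 2-oxoglutarate dehydrogenase complex and was kept apart. No timm gene met the rule.

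The RNA came from whole zebrafish embryos at 4 hpf (hours post fertilization) in 2 groups of 3 libraries. Embryos of the mondoa-mo group were injected with a translation-blocking morpholino against mondoa (mlxip), which encodes a glucose-sensing transcription factor. Embryos of the mondoa-mis group received a control morpholino with mismatches to the same target. Both groups were collected at the same age, when controls reached sphere stage. The comparison therefore asked which transcripts differed before epiboly movements became visibly abnormal. Because the groups were matched by age and not by stage, a delay in development and other effects of the morpholino cannot be told apart. Embryos were pooled for each RNA sample, and a morpholino lowers the protein without changing the gene. In bulk RNA of this kind, fewer cells of a type and less RNA per cell cannot be told apart.

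Mitochondria keep a small genome of their own, whose messages are read by a dedicated ribosome built from proteins that are encoded in the nucleus and imported. The respiratory complexes hand electrons to oxygen, pump protons across the inner membrane and drive ATP synthase, known as complex V. In the early zebrafish embryo most mitochondria and many of the transcripts for their proteins come from the egg, and the zygotic genome becomes active around the blastula stages.

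Which values chose the members matters for reading them. For 36 members the symbol stood only in a table ordered by significance in this same contrast, of which the top 1999 rows were read. All 36 therefore had to differ between the groups, and their values are given as a description without a test. The other 21 members had a symbol in tables ordered by identifier, so their place did not depend on this contrast and they were tested. The last members inside the ranked table were slc25a12, slc25a36a and slc25a40, with log2 fold changes of 0.24, -0.87 and -0.47. The family genes just outside it with the lowest adjusted p were cox6c, timm10 and ndufb4, with log2 fold changes of -0.61, 0.50 and -0.51. A wider set of 278 genes was found by applying these name patterns to the reference symbols of all identifiers. Here capitals were ignored and cox had to be followed by a digit. This wider set was not chosen by any readout and served as the comparison, but it holds 56 of the members and is not separate from them.

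Total counts per library lay between 20685326 and 32100726, and 15511 genes passed the filter on low counts and were tested. At an adjusted p under 0.05, 32.3% of all genes tested differed between the groups, with 16.9% higher and 15.4% lower in mondoa-mo in the quasi-likelihood test of edgeR, with p adjusted by Benjamini-Hochberg. The mondoa-mo libraries varied more among themselves, the biological coefficient of variation being 0.110 in them and 0.0189 in mondoa-mis. Among the members tested the SD of log2 CPM was larger in mondoa-mo for 45 of 56, with medians of 0.112 in mondoa-mo and 0.0523 in mondoa-mis. The same count over all genes was not made, so this is not a trait shown to be particular to the members. The targeted transcript mlxip was at 278, 273 and 267 CPM in mondoa-mis against 298, 327 and 349 CPM in mondoa-mo, which does not check the knockdown, since the morpholino blocks translation. CPM is the count relative to its library total after TMM normalization, and values are listed in the order of replicates 1, 2 and 3. Blastula markers were well above background in every library (summed CPM 2686 to 2704 in mondoa-mis and 2867 to 3176 in mondoa-mo), while markers of tissues not yet formed stayed between 0.209 and 0.468 summed CPM.

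**Figure D1:**
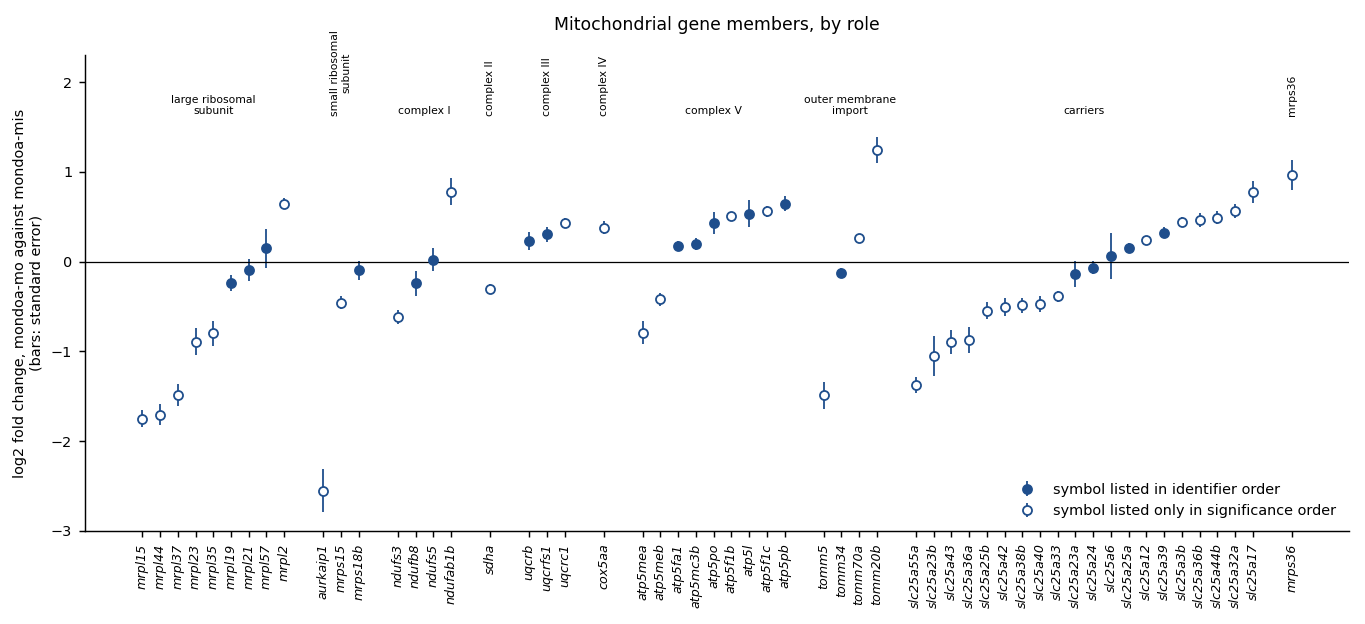
Log2 fold change of mondoa-mo against mondoa-mis for the members tested and reported here, grouped by role, with bars of 1 standard error; filled points are members listed by identifier and open points members chosen from the ranked table. Filled points lie between -0.24 and 0.65, while open points reach from -2.55 for aurkaip1 to 1.25 for tomm20b.

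Among the 20 tested members known by identifier, 7 were higher in mondoa-mo and 0 were lower, a share of 35.0% that lay near the 32.3% of all genes and the 35.8% of all genes in the same identifier-ordered tables. At an unadjusted p under 0.05, 11 of the 20 differed, 2 of them lower, and DESeq2 called 5, none of them lower. The shares of all genes at that unadjusted threshold or by DESeq2 were not counted, so these counts show no excess or deficit. The median log2 fold change of the 20 members was 0.11. In 11 of them CPM did not overlap between the groups, where 47.8% of all genes tested and 52.1% of those in the identifier-ordered tables had no overlap. The 7 higher genes were atp5fa1, atp5l, atp5mc3b, atp5pb and atp5po of complex V, uqcrfs1 of complex III and the carrier slc25a39. Leaving out mondoa-mis replicate 1, 2 or 3 left 2, 2 or 3 higher genes in place of 7. The wider set fell likewise, from 42 higher genes to 21, 24 or 27. The shares of all genes with a library left out were not counted, so a general loss of calls cannot be told apart from a loss in these members. The remaining member, mrpl53, did not pass the filter, with mean CPM of 0.205 in mondoa-mis and 0.176 in mondoa-mo. Of the 36 members taken from the ranking, 15 were higher and 21 lower, with a median log2 fold change of -0.44.

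The largest differences were in genes of the mitochondrial ribosome. The member with the lowest log2 fold change was aurkaip1, whose human counterpart is a protein of the small mitochondrial subunit. It was at 5.48, 7.36 and 6.37 CPM in mondoa-mis against 1.28, 1.34 and 0.626 CPM in mondoa-mo. Every mondoa-mo library lay far below every mondoa-mis library, a difference of 5.86-fold (log2 fold change -2.55, SE 0.236). The value rested on 40, 29 and 15 counts in the mondoa-mo libraries, and leaving out any library kept the log2 fold change between -2.72 and -2.29.

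Low values were also found for 3 proteins of the large subunit. The transcript of mrpl15 was at 20.6, 20.6 and 22.0 CPM in mondoa-mis against 6.69, 5.80 and 6.22 CPM in mondoa-mo, a log2 fold change of -1.75 (SE 0.0940). For mrpl44, the levels were 48.9, 47.4 and 47.6 CPM in mondoa-mis against 17.5, 14.5 and 11.8 CPM in mondoa-mo (log2 fold change -1.71, SE 0.118). For mrpl37, they were 20.9, 22.9 and 23.3 CPM against 6.50, 8.71 and 8.93 CPM (log2 fold change -1.48, SE 0.123). In all 3 the control libraries were tightly grouped and every mondoa-mo library lay below them, and the mondoa-mo libraries varied most for mrpl44. Smaller differences of the same direction were found for mrpl23 and mrpl35, with log2 fold changes of -0.89 and -0.80, and for the small subunit gene mrps15, at -0.46.

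Not all ribosomal members lay lower. Mrpl2, a large-subunit protein of a family conserved from bacteria, was at 42.8, 41.6 and 41.1 CPM in mondoa-mis against 70.2, 61.7 and 64.2 CPM in mondoa-mo (log2 fold change 0.65, SE 0.0643). It was the only ribosomal member taken from the ranking that lay higher in mondoa-mo. None of the 4 ribosomal members tested by identifier passed the test. The lowest adjusted p among them was that of mrpl19, whose groups did not overlap, with 38.1, 35.4 and 36.9 CPM in mondoa-mis against 33.4, 33.5 and 27.0 CPM in mondoa-mo (log2 fold change -0.23, adjusted p = 0.072). The log2 fold changes of mrpl21, mrps18b and mrpl57 were -0.09, -0.10 and 0.15, and their groups overlapped.

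In the unselected families the ribosome was balanced in direction. Of 44 large-subunit genes tested, 6 were higher and 6 lower (27.3%), with a median log2 fold change of 0.06. Of 29 small-subunit genes, 3 were higher and 3 lower (20.7%), with a median of 0.06. Among all genes tested the changed share was 32.3%. The higher genes outside the members included mrps33, at 3.35, 3.91 and 4.23 CPM in mondoa-mis against 6.53, 5.62 and 5.88 CPM in mondoa-mo (log2 fold change 0.66, SE 0.137, adjusted p = 0.0046). Mrps2 (0.51), mrpl16 (0.50) and mrpl12 (0.40) were higher too, and mrpl27 (-0.48) and mrps6 (-0.42) were lower. No other gene of either subunit had a log2 fold change as low as those of aurkaip1, mrpl15, mrpl44 and mrpl37.

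The family genes nearest to aurkaip1, by Euclidean distance of log2 CPM centred on the mondoa-mis mean over the 6 libraries, were mrpl44 (0.900), mrpl15 (1.04), cox5b (1.28), mrpl37 (1.49) and tomm5 (1.59). Because of the centring, this distance mainly followed the size of the difference between the groups. Mrpl44, mrpl15, mrpl37 and tomm5 were also chosen by this contrast, so the list is a description and does not show that the genes vary together among libraries. Cox5b, a subunit of complex IV, is not a member because its symbol was written in capitals in the tables read. It was at 24.2, 23.4 and 22.6 CPM in mondoa-mis against 8.06, 7.92 and 7.76 CPM in mondoa-mo. Its log2 fold change of -1.56 (SE 0.0830) was the fourth lowest of the wider set, and its mondoa-mo libraries were almost identical. Other identifiers in the wider set share the symbol cox5b, and none of them was among the lower complex IV genes.

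**Figure D2:**
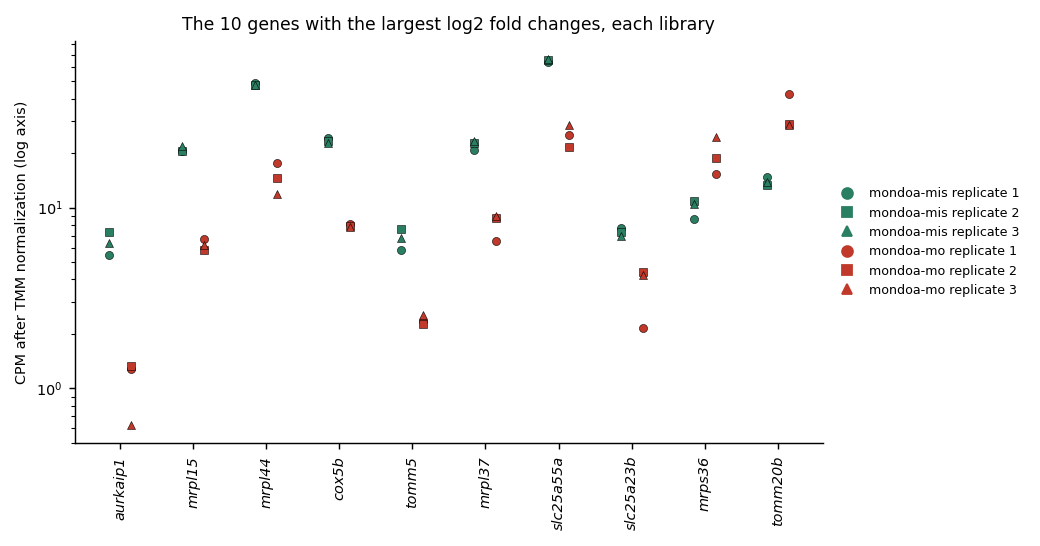
CPM after TMM normalization on a log axis for the 10 genes with the largest log2 fold changes in either direction among the members and the wider set together, with 1 point for each of the 6 libraries. The groups do not overlap for any of the 10 genes, and only mrps36 and tomm20b lie higher in mondoa-mo. The genes were picked by the size of their difference in this contrast, so the lack of overlap is a description. Among all genes tested, 47.8% had no overlap.

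Among the members of complex I, the entry point for electrons from NADH, the core subunit gene ndufs3 lay lower. It was at 22.0, 22.9 and 23.6 CPM in mondoa-mis against 15.3, 15.02 and 14.3 CPM in mondoa-mo (log2 fold change -0.62, SE 0.0774). In contrast, ndufab1b, which encodes a mitochondrial acyl carrier protein that is also a complex I subunit, was at 4.66, 6.13 and 5.80 CPM against 7.97, 9.996 and 10.6 CPM (log2 fold change 0.78). Ndufs5 and ndufb8, complex I members known by identifier, overlapped between the groups and did not pass the test, with log2 fold changes of 0.02 and -0.24. Over the 37 complex I genes of the wider set, 4 were higher and 4 lower, which is 21.6% against 32.3% of all genes tested. Of the 37 log2 fold changes, 25 were negative (median -0.09), where 7698 of the 15511 genes tested were negative (median 0.00). The 37 genes were measured in the same libraries, so they are not separate observations.

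Complexes II to IV had few members. The flavoprotein subunit gene of succinate dehydrogenase, sdha, was at 98.2, 96.5 and 93.0 CPM in mondoa-mis against 80.4, 77.7 and 75.0 CPM in mondoa-mo, lower in every mondoa-mo library (log2 fold change -0.30). The Rieske iron-sulfur protein gene of complex III, uqcrfs1, was at 14.4, 14.8 and 15.2 CPM in mondoa-mis against 17.2, 19.3 and 18.4 CPM in mondoa-mo. Its groups did not overlap, and it rose by edgeR's quasi-likelihood test (log2 fold change 0.30, SE 0.0834, adjusted p = 0.019), although the adjusted p reached 0.087 when a library was left out. The other complex III members, uqcrc1 and uqcrb, had log2 fold changes of 0.43 and 0.23, of which that of uqcrb did not pass the test (adjusted p = 0.11). The only complex IV member, cox5aa, was at 33.8, 37.7 and 34.3 CPM against 44.6, 48.6 and 44.2 CPM (log2 fold change 0.38). In the wider set 3 of 11 complex IV genes were lower, namely cox5b, cox6c (-0.61) and cox7a2 (-0.33), and cox5aa was the 1 higher gene. Together they made 36.4% of the 11, against 32.3% of all genes tested.

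Complex V had the highest share of changed genes among the roles: of its 20 genes in the wider set, 9 were higher and 5 lower, which is 70.0% against 32.3% of all genes tested. The median log2 fold change was -0.06, with 11 of the 20 values below 0. The higher genes were mostly those of the catalytic head and the stalks. Atp5f1b, the catalytic beta subunit, was at 348, 339 and 341 CPM in mondoa-mis against 488, 493 and 483 CPM in mondoa-mo, a 1.42-fold difference with close replicates in both groups (log2 fold change 0.51, SE 0.0388). Atp5f1c, the gamma subunit of the rotating central stalk, was at 98.2, 99.8 and 97.2 CPM against 134, 145 and 156 CPM (log2 fold change 0.56). Both of these came from the ranked table, so they are descriptions.

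The 5 complex V members known by identifier were all higher and passed the test. The largest rise was in atp5pb, the b subunit of the peripheral stalk, from 15.1, 16.0 and 15.8 CPM to 26.4, 22.4 and 24.4 CPM (log2 fold change 0.65, SE 0.0854, adjusted p = 0.00033). Atp5l, the membrane subunit g, went from 2.70, 2.98 and 3.14 CPM to 3.74, 4.84 and 4.26 CPM (log2 fold change 0.54, SE 0.154, adjusted p = 0.023). Atp5po, which encodes the subunit joining stalk and head, went from 9.89, 11.9 and 12.8 CPM to 16.3, 13.7 and 16.4 CPM (log2 fold change 0.43, SE 0.119, adjusted p = 0.019). In each of these genes the lowest mondoa-mo library lay above the highest mondoa-mis library, by a narrow margin for atp5po and atp5l. Atp5fa1, the alpha subunit of the head, and atp5mc3b, of the membrane ring, rose less, with log2 fold changes of 0.17 and 0.20 (adjusted p = 0.031 and 0.046). With a library left out, the adjusted p of atp5pb stayed at or under 0.0043, whereas those of atp5fa1, atp5l, atp5mc3b and atp5po reached 0.11, 0.10, 0.19 and 0.094. The wider set added atp5pf and atp5pd, further peripheral stalk subunits, at 0.62 and 0.76 (adjusted p = 0.0051 and 0.0093).

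The lower complex V genes were different ones. Both genes of the membrane subunit e lay lower: atp5mea was at 18.3, 19.7 and 18.3 CPM in mondoa-mis against 8.71, 12.4 and 11.6 CPM in mondoa-mo (log2 fold change -0.79, SE 0.126). Atp5meb was at 26.2, 29.0 and 29.4 CPM against 21.1, 20.6 and 21.5 CPM (log2 fold change -0.42). Subunit g (atp5l) and subunit e, which sit side by side in the membrane part of the enzyme, thus had opposite signs. Outside the members, the central stalk gene atp5f1e fell (-0.27, adjusted p = 0.031), as did atp5if1a and atp5if1b, inhibitors of the enzyme's reverse reaction (-0.51 and -0.70, adjusted p = 0.016 and 0.032). The remaining 6 complex V genes did not pass the test, with log2 fold changes between -0.23 for atp5f1d and -0.06 for atp5mc1 and atp5mc3. Leaving out mondoa-mis replicate 1 or 2 left 4 or 5 higher genes, and leaving out mondoa-mis replicate 1, 2 or 3 or mondoa-mo replicate 1 left 3, 3, 2 or 3 lower genes. The shares of all genes with those libraries left out were not counted.

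**Figure D3:**
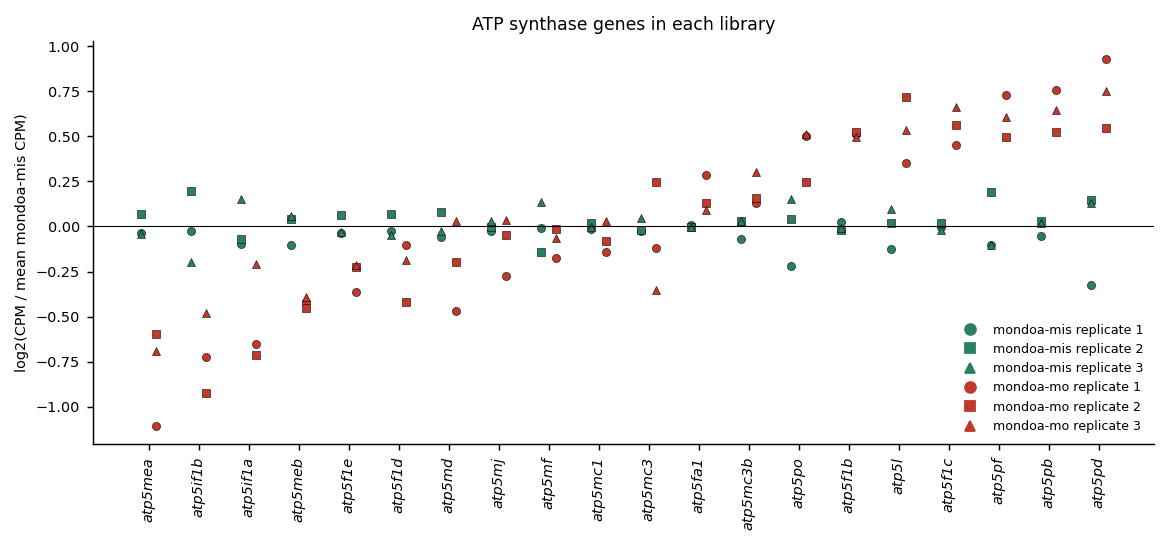
Log2 ratio of CPM in each library to the mean CPM of the mondoa-mis libraries for the 20 ATP synthase genes, ordered by log2 fold change. The genes run from atp5mea, where all mondoa-mo libraries lie below the control libraries (log2 fold change -0.79), to atp5pd, where all lie above them (0.76).

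Per kilobase of gene length, members differed widely in level. In mondoa-mis atp5fa1 and atp5f1b, which form the head together, were the members with the highest levels, at 223 and 185 CPM per kb, followed by slc25a33 at 100.4 and atp5f1c at 95.5 CPM per kb. In mondoa-mo the levels of atp5fa1 and atp5f1b were 251 and 263 CPM per kb, and did not differ from each other beyond the spread of the mondoa-mo libraries. Against mondoa-mis both were higher, with log2 fold changes of 0.17 and 0.51. At the other end slc25a36a was at 1.13 and mrpl53 at 0.522 CPM per kb in mondoa-mis. These levels depend on the gene lengths deposited with the counts.

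The outer membrane import members, parts or partners of the channel through which proteins made in the cytosol enter, had log2 fold changes of both signs. Tomm5, tomm20b and tomm70a came from the ranked table, so their values are descriptions. Only tomm34 was known by identifier and tested. Tomm5, a small subunit of the channel complex, was at 5.81, 7.62 and 6.75 CPM in mondoa-mis against 2.37, 2.26 and 2.55 CPM in mondoa-mo (log2 fold change -1.49, SE 0.149). Tomm20b, a receptor for presequences, was at 14.8, 13.4 and 13.9 CPM against 42.3, 28.8 and 28.5 CPM, the highest log2 fold change among the members (1.25, SE 0.148). Its groups were far apart, but replicate 1 of mondoa-mo stood above the other 2 mondoa-mo libraries.

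Its duplicate tomm20a, not a member, hardly differed, at 55.0, 55.6 and 55.6 CPM against 54.3, 53.2 and 56.8 CPM (log2 fold change -0.02). The summed CPM of the pair went from 69.4 ± 0.409 in the controls to 87.9 ± 7.68 in mondoa-mo (SD, n = 3 each). The receptor gene tomm70a was at 160, 155 and 157 CPM against 188, 183 and 196 CPM (log2 fold change 0.26), and tomm34, a cytosolic cochaperone of import, did not pass the test (-0.12, adjusted p = 0.091). Among all genes tested 16.9% were higher and 15.4% lower. Over the wider set 4 of 10 outer membrane genes were higher and 1 lower. Of 14 inner membrane import genes 3 were higher and 0 lower: timm10 rose from 8.50, 8.72 and 8.41 CPM to 12.3, 11.7 and 12.3 CPM (log2 fold change 0.50, adjusted p = 0.0022), and timm23a and timm13 had log2 fold changes of 0.28 and 0.20.

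The carriers were the most numerous members. Of the 20 carrier members, 15 were chosen by this contrast, and of those 6 lay higher and 9 lower in mondoa-mo. The lowest values were those of slc25a55a, at 63.7, 65.5 and 66.3 CPM in mondoa-mis against 25.1, 21.6 and 28.6 CPM in mondoa-mo (log2 fold change -1.37), and slc25a23b, at 7.69, 7.32 and 6.94 CPM against 2.14, 4.42 and 4.21 CPM (-1.05). Both were lower in every mondoa-mo library, slc25a23b most in replicate 1. The highest were slc25a17, whose human counterpart is a carrier of the peroxisome rather than of the mitochondrion, at 5.52, 4.64 and 5.13 CPM against 9.44, 8.43 and 8.26 CPM (log2 fold change 0.78), and slc25a32a, a folate carrier (0.56). The phosphate carrier gene slc25a3b, which supplies ATP synthase, was also higher in mondoa-mo (0.45), as was the aspartate-glutamate carrier gene slc25a12 (0.24).

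Of the 5 carriers known by identifier only slc25a39, whose human counterpart carries glutathione into mitochondria, passed the test. It rose from 73.6, 75.1 and 78.3 CPM to 87.4, 98.8 and 98.2 CPM (log2 fold change 0.32, SE 0.0607, adjusted p = 0.0026 by edgeR's quasi-likelihood test), with no overlap. Its relative slc25a40, from the ranked table, had the opposite sign (-0.47). The others were slc25a24 (-0.07, adjusted p = 0.51), slc25a6 (0.06, adjusted p = 0.88), slc25a23a (-0.14, adjusted p = 0.50) and slc25a25a (0.15, adjusted p = 0.063). In the wider set 8 of 44 carriers were higher and 9 lower, with a median of -0.05. Together that is 38.6%, against 32.3% of all genes tested.

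Several members belong to pairs of duplicated genes, and no difference between copies was tested. Slc25a36a and slc25a36b encode pyrimidine nucleotide carriers. The first was at 6.13, 5.74 and 5.09 CPM in mondoa-mis against 2.82, 2.95 and 3.55 CPM in mondoa-mo (log2 fold change -0.87), and the second at 33.9, 31.7 and 30.6 CPM against 40.5, 45.9 and 46.5 CPM (0.46). The share of the pair's summed CPM that came from slc25a36a was accordingly 15.3, 15.3 and 14.3% in mondoa-mis and 6.51, 6.04 and 7.09% in mondoa-mo, while the sum went from 37.7 ± 2.18 to 47.4 ± 3.60 CPM (SD, n = 3 each).

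The genes slc25a23a, slc25a23b, slc25a25a and slc25a25b encode ATP-Mg/phosphate carriers. Slc25a25b was at 39.4, 37.8 and 38.8 CPM in mondoa-mis against 26.4, 30.2 and 23.0 CPM in mondoa-mo (-0.54), whereas slc25a25a was at 239, 255 and 252 CPM against 263, 298 and 266 CPM and did not pass the test. Because slc25a25a supplied 85.8 to 87.1% of the sum in mondoa-mis, the summed CPM of 287 ± 7.90 in mondoa-mis and 302 ± 22.6 in mondoa-mo differed by less than the SD of the mondoa-mo libraries. For slc25a23a and slc25a23b the summed CPM went from 14.7 ± 0.671 to 10.3 ± 2.24, and for atp5mea and atp5meb, which both lay lower, from 47.0 ± 2.14 to 32.0 ± 1.90. Read pairs that match both copies of a pair would not be counted as uniquely mapped, so the split between copies is less certain than the level of a gene without a copy.

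**Figure D4:**
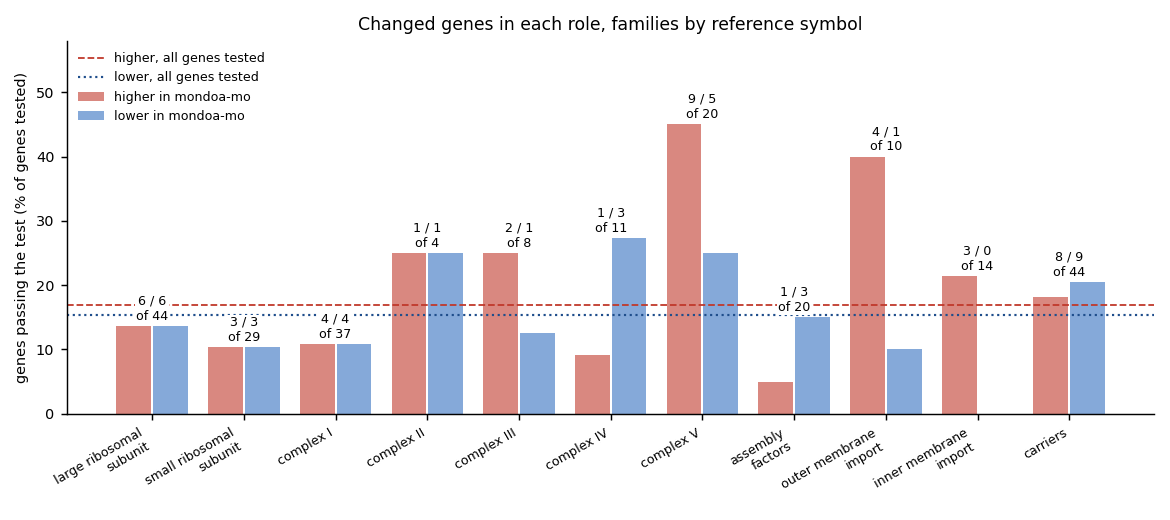
Percentage of the tested genes in each role of the wider set that were higher or lower in mondoa-mo, with the numbers of higher and lower genes above the bars and lines at the percentages for all genes tested (16.9 and 15.4). Complex V, with 9 higher and 5 lower of 20, lies above both lines, as do the carriers (8 and 9 of 44) and complex II (1 and 1 of 4). Both ribosomal subunits, complex I and the assembly factors lie below both lines.

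Over the whole wider set the share of changed genes was that of all genes. Of 241 tested, 42 were higher and 36 lower, together 32.4% against 32.3% of all genes, and the median log2 fold change was 0.02 against 0.00. In 118 of the 241 the groups had no overlap, as in 47.8% of all genes. Among genes that passed the test without overlap, the 5 lowest log2 fold changes were those of aurkaip1, mrpl15, mrpl44, cox5b and tomm5. The 5 highest were those of tomm20b, slc25a51a (0.87, adjusted p = 0.026), ndufab1b, slc25a17 and atp5pd. Among these, aurkaip1, mrpl15, mrpl44, tomm5, tomm20b, ndufab1b and slc25a17 were members chosen by this same contrast, so their passing is a description. Leaving out mondoa-mis replicate 1, 2 or 3 left 21, 24 or 27 higher genes of the wider set in place of 42, and the shares of all genes were not counted there.

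Mitochondrial DNA itself encodes core subunits of complexes I, III, IV and V. None of these 13 genes passed edgeR's test, while 3 had an unadjusted p under 0.05 and DESeq2 called 1. The shares of all genes at that unadjusted threshold or by DESeq2 were not counted. Every log2 fold change of the 13 genes was below 0, with a median of -0.18. Their summed level was 16140, 16563 and 16513 CPM in mondoa-mis against 12993, 14130 and 18366 CPM in mondoa-mo. The control libraries were close together, whereas the mondoa-mo libraries lay on both sides of them, with replicates 1 and 2 below and replicate 3 above. The lowest value of all 6 libraries was in mondoa-mo replicate 1 for 12 of the 13 genes and in replicate 2 for the other, and the highest was in mondoa-mo replicate 3 for 9. The log2 fold changes ran from -0.41 for mt-atp8, a subunit of complex V, to -0.0008 for mt-cyb. For mt-atp8 the levels were 196, 200 and 200 CPM against 93.7, 164 and 194 CPM, with mondoa-mo replicate 3 just below the controls. Without mondoa-mo replicate 3, all 13 genes passed the test, so the result rested on that library. The 13 genes were measured in the same libraries, so their agreement does not amount to 13 separate observations. Among the nuclear members the order of the mondoa-mo libraries was less marked: replicate 1 was the lowest of them for 26 and the highest for 15 of 56, replicate 2 for 14 and 22, and replicate 3 for 16 and 19. Whether the differences among mondoa-mo libraries in mitochondrial transcripts had a part in the members' values was not tested.

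**Figure D5:**
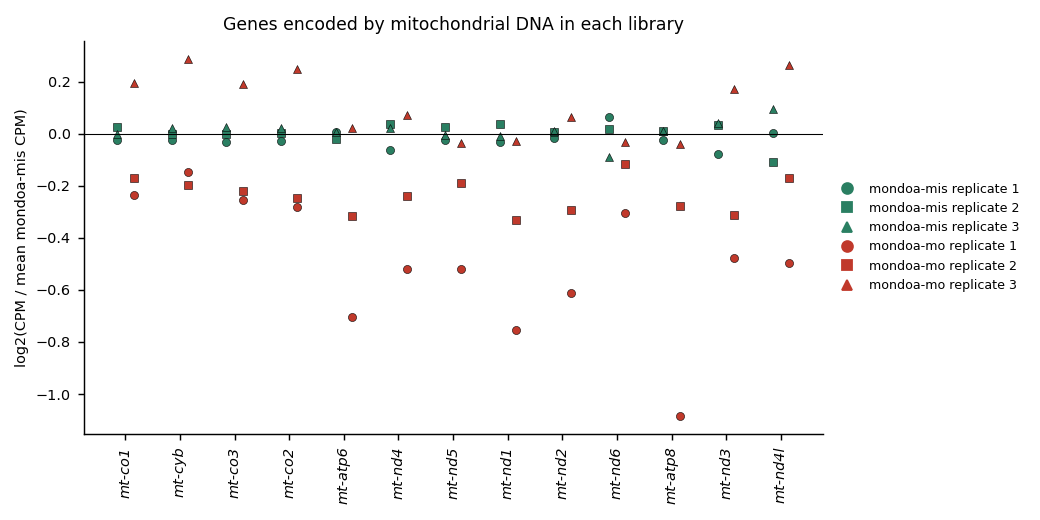
Log2 ratio of CPM in each library to the mean CPM of the mondoa-mis libraries for the 13 genes encoded by mitochondrial DNA. Mondoa-mo replicate 1 is the lowest library for 12 genes and mondoa-mo replicate 3 the highest for 9, while the mondoa-mis libraries stay near 0.

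The tricarboxylic acid cycle and pyruvate dehydrogenase, which feed electrons to the complexes, were followed with a list of 23 symbols, of which 19 genes were tested. Among these 9 were higher, 4 lower and 6 did not pass the test, with a median log2 fold change of 0.17, beside 16.9% higher and 15.4% lower among all genes tested. The largest rise was in fh, fumarate hydratase, from 7.97, 7.83 and 8.89 CPM to 23.8, 20.4 and 24.0 CPM (log2 fold change 1.47, SE 0.101, adjusted p = 6.3e-06). Idh2, suclg1 and the citrate synthase gene cs also rose (0.57, 0.54 and 0.38). Lower genes were pdha1a and pdhb, which encode both chains of the pyruvate dehydrogenase component (-0.44 each), mdh2 (-0.38) and pcxa (-0.36). Mrps36, the member that belongs to the 2-oxoglutarate dehydrogenase complex, was at 8.67, 10.8 and 10.5 CPM in mondoa-mis against 15.4, 18.8 and 24.7 CPM in mondoa-mo (log2 fold change 0.97, SE 0.166). It was higher in every mondoa-mo library and highest in replicate 3, and its partners in the complex, ogdha, dlst and dldh, had log2 fold changes of 0.31, 0.23 and 0.23.

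Of 30 factors that assemble the complexes, tested from a list of 31, 3 were higher and 5 lower, with a median of 0.05, where 16.9% of all genes were higher and 15.4% lower. Sco1, a copper chaperone of complex IV, rose from 3.76, 3.40 and 3.85 CPM to 6.05, 5.80 and 5.55 CPM (log2 fold change 0.66, adjusted p = 0.0027). Uqcc2, an assembly factor of complex III, fell from 4.29, 4.13 and 5.37 CPM to 3.04, 2.303 and 2.59 CPM (-0.78, adjusted p = 0.0055). Ndufaf6 and ndufaf7, assembly factors of complex I, fell as well (-0.65 and -0.57).

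Marker transcripts of other parts of the embryo also differed between the groups. The summed level of 8 enveloping layer markers was 188 to 197 CPM in mondoa-mis and 100 to 159 CPM in mondoa-mo, where 1 of 6 tested was lower (grhl3) and 1 higher (cldne). Without grhl3 the other 7 summed to 73.4 to 76.7 CPM in mondoa-mis and 71.6 to 126 CPM in mondoa-mo. The fall of the whole sum in every mondoa-mo library thus rested on grhl3. Within those 7, krt4 and krt8 lay below the controls in mondoa-mo replicates 1 and 2 and above them in replicate 3. Neither passed the test, and cldne lay above the controls in every mondoa-mo library. The summed level of 6 yolk syncytial layer markers was 13.0 to 14.7 CPM against 17.2 to 28.9 CPM, with 1 of 3 tested higher (mxtx1). Mxtx1 was at 6.75, 6.17 and 5.80 CPM in mondoa-mis against 10.4, 12.4 and 17.7 CPM in mondoa-mo. The groups overlapped for mxtx2 and slc40a1, which did not pass the test. The sum without mxtx1 was not made, so a rise of these markers as a group is not shown. Maternal oocyte transcripts summed to 1770 to 1799 CPM against 1534 to 1730 CPM, with 2 of 9 higher (dazl and gdf3) and 2 lower (buc and zp2.2). Without buc the other 8 summed to 1133 to 1167 CPM in mondoa-mis and 1218 to 1314 CPM in mondoa-mo. Of 8 blastoderm markers 5 were higher and 1 lower, beside 16.9% higher and 15.4% lower among all genes tested. The part of these differences in the values of the mitochondrial genes was not tested. In the gene table of RefSeq, 14 of the 57 members overlap another protein-coding gene, among them mrpl15, mrpl37, mrpl2, tomm5, atp5f1c, atp5pb, atp5po and atp5l. Their levels are less certain, since the sources used here do not state whether strand was used in counting.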

How the data were processed

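RNA-seq was analysed from 3 mondoa-mis and 3 mondoa-mo libraries, grouped by their labels. Per the labels and the study's methods, the authors prepared TruSeq mRNA libraries from TRIzol-extracted total RNA, read 50 nucleotides of both fragment ends in 3 lanes and mapped the pairs to GRCz11 with STAR 2.3.8. They deposited raw counts of uniquely mapped pairs per Ensembl 96 gene, without normalization, with gene lengths. Use of strand was not given in the sources used here. Nothing stated whether replicates came from separate clutches, so p-values measure the spread between these samples.

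The deposited counts were tested with edgeR 4.0.16 under R 4.3.3: filterByExpr, TMM, quasi-likelihood test with Benjamini-Hochberg adjustment over all 15511 genes tested, threshold 0.05. A standard error is the log2 fold change divided by the square root of the F statistic. The procedure was tested on simulated data with 200 genes changed 2-fold and the same dispersion in both groups. That simulation cannot check the calls under the unequal spread of the real groups or the larger share of changed genes. With 3 against 3 libraries an exact permutation test cannot give a two-sided p below 0.1, so none was used. Total counts per library were 20685326 to 32100726, and counts carry counting error as well as the spread between samples. Alternatives were size factors by relative log expression, library size alone, 2 other filters on low counts, DESeq2 1.42.0, a block for the replicate number, and omission of each library. Their use on complex V, the tricarboxylic acid cycle list and the mitochondrial DNA genes was chosen after seeing the data, as were the marker sums without grhl3 or buc.

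The members and lists were chosen with earlier results of these data known. Named genes were aurkaip1, in each role the 2 members with the lowest and the 2 with the highest log2 fold change, duplicated pairs, the 5 lowest and 5 highest of the wider set, and the 5 most like aurkaip1. Other members and list genes were named after their values were seen. Family symbols came from the reference gene-name table, which matched 28986 of 32054 identifiers, and were printed in lower case. The RefSeq table (GRCz12tu) paired no Ensembl identifiers and served only for overlaps by symbol. The authors' fold changes and p-values were not used beyond the order of their tables, which the choice of members rests on. The values of 1 member are not reported here. Promoter motifs and sequences were not analysed here.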

Additional observations from a re-analysis of the deposited data

How the results depend on the processing

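Of the 20 members tested by identifier, 7 were higher in the text, 5 with library size alone or DESeq2, and 2 to 8 with a library left out. Lower members by identifier numbered 0 in the text, 2 with library size alone, and 0 to 1 with a library left out. The wider set had 42 higher and 36 lower genes, against 32 and 46 with library size alone, which turned the split, and 21 to 43 higher and 27 to 40 lower with a library left out. Its median log2 fold change was 0.0162, -0.0270 with library size alone, and -0.0228 to 0.0230 with a library left out. That scaling shifted the median of all genes to -0.04. Complex V had 4 to 9 higher and 2 to 5 lower genes with a library left out, and the tricarboxylic acid cycle list 7 to 10 and 4 to 5. The genes of mitochondrial DNA changed in 5 cases with all genes of at least 1 count, in 1 with DESeq2, and in 0 to 13 with a library left out, 13 without mondoa-mo replicate 3. The shares of all genes called in these settings were not counted, and the causes were not tested.

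With the replicate number as a block, lower members by identifier numbered 1, changed genes of mitochondrial DNA 6, and the wider set had 44 higher and 39 lower genes. Whether the numbers pair the samples is not known. Deviations of same-numbered libraries correlated at 0.04, 0.03 and 0.05. The mondoa-mis libraries varied little among themselves (biological coefficient of variation 0.0189), so these correlations cannot exclude pairing.

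Over single genes 772 values kept direction and call, 40 (10 genes) lost the call, 8 (3 genes) gained it and 8 (5 genes) reversed. None of the reversed genes had passed the test. Ndufs5 was at -0.0205 with library size alone. With a library left out, ndufs5 ranged from -0.0441 to 0.0890, atp5mc3 from -0.236 to 0.0691, mrpl57 from -0.0655 to 0.263, mrps18b from -0.176 to 0.0015 and slc25a6 from -0.15 to 0.349. The genes that lost the call under some setting included atp5fa1, atp5l, atp5mc3b and uqcrfs1. The lowest member, aurkaip1, rested on at most 40 counts per mondoa-mo library.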

Other observations

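A list of 17 symbols held genes that keep and read mitochondrial DNA, and nuclear regulators such as nrf1, gabpa, esrra and ppargc1b. Of the 15 genes tested, 5 were higher and 3 lower, with a median log2 fold change of -0.00. Among all genes tested 16.9% were higher and 15.4% lower. Top1mt, the mitochondrial topoisomerase, rose from 2.53, 2.55 and 2.42 CPM in mondoa-mis to 11.6, 9.21 and 9.85 CPM in mondoa-mo (log2 fold change 2.03, SE 0.136, adjusted p = 5.4e-06 by edgeR's quasi-likelihood test). Polrmt, the mitochondrial RNA polymerase, fell from 80.0, 79.8 and 77.3 CPM to 41.5, 53.2 and 40.7 CPM (log2 fold change -0.81, SE 0.0933, adjusted p = 0.00014). The packaging factor gene tfam, between 9.17 and 10.9 CPM in mondoa-mis and 8.71 and 9.49 CPM in mondoa-mo, did not pass the test (-0.13, adjusted p = 0.37). The helicase gene twnk and the transcription factor gene tfb2m were higher (0.44 and 0.63), and rnaseh1 and polg were lower (-0.52 and -0.28). The nuclear regulators esrra and ppargc1b were higher as well (0.37 and 0.60).

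Of 14 chaperone, protease and prohibitin genes of the mitochondrion tested from a list of 19, 5 were higher and 1 lower (median 0.14), against the same background. The chaperonin gene hspe1 rose from 4.25, 5.11 and 4.42 CPM to 7.42, 7.19 and 9.14 CPM (0.78, adjusted p = 0.0018), and its partner hspd1 was higher by less (0.26). The protease genes lonp1 and clpxb were higher (0.54 and 0.67), while the inner membrane protease gene yme1l1b fell from 283, 291 and 280 CPM to 192, 205 and 189 CPM (-0.54, adjusted p = 2.4e-05). Of 16 mitochondrial transfer RNA synthetase genes tested from a list of 17, 5 were higher and 1 lower (median 0.11). The lower gene was nars2, at 7.15, 6.42 and 6.75 CPM against 3.52, 3.04 and 3.42 CPM (-1.02, adjusted p = 0.00022), and the higher ones lay between 0.24 for iars2 and 0.48 for aars2.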
